A study of Mus musculus with 6 samples.

Results

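The 9 genes that build some of the contacts between neighbouring hepatocytes and were measured here in mouse liver are the claudin genes Cldn1, Cldn2, Cldn3, Cldn12 and Cldn14, the tight junction genes Ocln and Tjp1, and the connexin genes Gjb1 and Gjb2. They were chosen by name, as the probe sets whose annotation gives exactly 1 symbol from that list. The list itself was drawn up with earlier results of these data known. Each gene had 1 such probe set, which gives 9 of the 19938 genes named by a single symbol on the array. The mutant animals were 3 LmnaG609G/G609G knock-in mice (replicates 1, 3 and 5), homozygous for the allele that serves as a model of Hutchinson-Gilford progeria, and they were set against 3 Lmna+/+ wild-type mice (replicates 2, 4 and 6). All 6 mice were C57BL/6 females, 3 months old, and had been without food for 6 h. The allele is carried in the germ line, so all liver cell types bear it. Each mouse gave 1 array of whole-liver RNA, with 1 intensity per probe set on a linear scale in arbitrary units.

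Tight junctions close the bile canaliculus, the narrow channel between hepatocytes into which bile is secreted, and keep bile apart from blood. Claudins form the sealing strands and, in some cases, pores for small ions, occludin lies in the same strands, and the protein ZO-1 ties the strands to the actin cytoskeleton. Gap junctions, built from connexins, join the cytoplasm of neighbouring hepatocytes and let ions and small messengers pass along the liver plate.

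The members stood at moderate to high signal. Array medians lay between 97 and 104 units and the lower quartile of all values was 38 units, while the 9 genes ran from 107 units (Cldn2) to 4428 units (Gjb2). All 9 passed the filter on low values. In whole liver, fewer cells of a type and less RNA per cell cannot be told apart. The hepatocyte marker Alb (albumin) read 16618 to 18818 units in knock-in and 16607 to 17889 units in wild-type liver and was not called. Other hepatocyte markers did differ. Of 10 tested, 2 were higher by limma, the transcription factor gene Hnf4a (log2 change 0.84) and Tat, which encodes a tyrosine-degrading enzyme (0.60), and 1 was lower, the receptor gene Asgr1 (-0.58). Tat and Asgr1 are named after their values were seen. The call of Tat was lost if knock-in mouse 1 was left out (limma adjusted p = 0.0509), and that of Asgr1 with any mouse but knock-in mouse 3 left out (limma adjusted p = 0.0553 to 0.0861). The summed level of the 10 was 121433 to 131181 units in knock-in and 116824 to 120458 units in wild-type liver, without overlap. That sum includes Tat, at 18121 to 20045 units in knock-in and 10256 to 14210 units in wild-type liver. It also includes Hnf4a, at 8707 to 9461 and 4529 to 5479 units. The other 7 besides Tat, Hnf4a and Asgr1 were not called, so the separation does not describe the markers as a whole. Among single tested probe sets, all knock-in arrays lay above all wild-type arrays at 23.9%, and 14.9% were called higher and 10.9% lower. The part of the summed level in the changes of the junction genes was not tested. Bile duct cells also make claudins. Of 12 listed bile duct markers 9 had a probe set, their summed level was 679 to 739 units in knock-in and 652 to 727 units in wild-type liver, and no single value exceeded 147 units. None of the 8 that could be tested was called by limma, and 0 had an unadjusted p under 0.05 in either direction. Among the knock-in arrays, that of mouse 3 lay closest to the wild-type arrays (Pearson r across probe sets 0.976 to 0.980), while those of mice 1 and 5 had r of 0.960 to 0.969.

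The start sites of 5 of the 9 genes are single in the RefSeq annotation, and their promoter windows are shown so that their CG content, which was picked as the feature to mark after the windows had been looked at, can be read beside the calls. Each window covers 250 bases before and 50 bases after the start site, 5′ to 3′ on the gene's strand, from RefSeq for GRCm38.p6. Capitals mark every CG dinucleotide. The first 3 belong to genes called lower in knock-in liver and the last 2 to genes that were not called.
Cldn2, chrX:139800558-139800857, plus strand: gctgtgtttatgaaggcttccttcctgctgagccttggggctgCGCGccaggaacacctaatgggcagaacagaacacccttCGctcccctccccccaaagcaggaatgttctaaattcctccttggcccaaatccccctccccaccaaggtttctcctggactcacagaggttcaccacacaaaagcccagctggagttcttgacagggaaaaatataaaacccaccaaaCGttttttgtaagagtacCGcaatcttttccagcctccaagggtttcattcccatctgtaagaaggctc
Cldn3, chr5:134985964-134986263, plus strand: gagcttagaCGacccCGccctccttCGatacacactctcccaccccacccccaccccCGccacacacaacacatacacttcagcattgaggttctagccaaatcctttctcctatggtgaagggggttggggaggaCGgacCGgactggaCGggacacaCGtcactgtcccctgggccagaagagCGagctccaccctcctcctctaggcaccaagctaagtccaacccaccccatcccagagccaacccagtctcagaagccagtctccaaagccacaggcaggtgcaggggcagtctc
Cldn1, chr16:26371790-26372089, minus strand: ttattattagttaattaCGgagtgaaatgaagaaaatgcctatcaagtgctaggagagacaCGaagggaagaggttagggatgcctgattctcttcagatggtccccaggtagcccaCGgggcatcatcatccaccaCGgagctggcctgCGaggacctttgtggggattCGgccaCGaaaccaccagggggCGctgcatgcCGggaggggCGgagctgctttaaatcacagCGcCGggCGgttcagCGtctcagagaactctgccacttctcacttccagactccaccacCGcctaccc
Gjb2, chr14:57104653-57104952, minus strand: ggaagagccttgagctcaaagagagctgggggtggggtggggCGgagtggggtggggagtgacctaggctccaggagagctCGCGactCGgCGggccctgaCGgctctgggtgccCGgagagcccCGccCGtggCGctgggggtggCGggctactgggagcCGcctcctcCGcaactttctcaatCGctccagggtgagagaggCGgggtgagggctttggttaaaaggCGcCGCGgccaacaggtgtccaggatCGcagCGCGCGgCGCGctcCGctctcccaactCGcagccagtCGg
Tjp1, chr7:65371195-65371494, minus strand: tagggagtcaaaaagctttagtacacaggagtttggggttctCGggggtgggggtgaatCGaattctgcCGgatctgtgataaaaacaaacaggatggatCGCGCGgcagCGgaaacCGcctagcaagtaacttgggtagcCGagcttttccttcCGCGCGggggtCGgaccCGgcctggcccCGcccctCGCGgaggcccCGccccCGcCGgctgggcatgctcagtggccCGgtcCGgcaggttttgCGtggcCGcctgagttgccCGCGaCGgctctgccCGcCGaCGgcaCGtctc

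Between knock-in and wild-type liver, 4 of the 9 genes were lower and 0 were higher. The 4 were Cldn2 (3.23-fold lower), Gjb1 (2.13-fold lower), Cldn3 (1.66-fold lower) and Cldn1 (1.45-fold lower). Ocln, Tjp1, Cldn14, Cldn12 and Gjb2 were not called. A gene was called where its limma p, adjusted by Benjamini-Hochberg over all 26634 tested probe sets, was under 0.05, with intensities transformed as log2(value + 16), so that folds are on that scale. Across all tested probe sets, 10.9% were called lower and 14.9% higher, and the median log2 change was 0.03, against a median of -0.48 over the 9 genes. Because the 9 genes were chosen with earlier results of these data known, such shares are description and not a test. At an unadjusted p under 0.05, 5 of the 9 were lower and 0 higher. All knock-in mice lay below all wild-type mice in the same 4 genes, which was the case at 17.2% of tested probe sets.

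**Figure D1:**
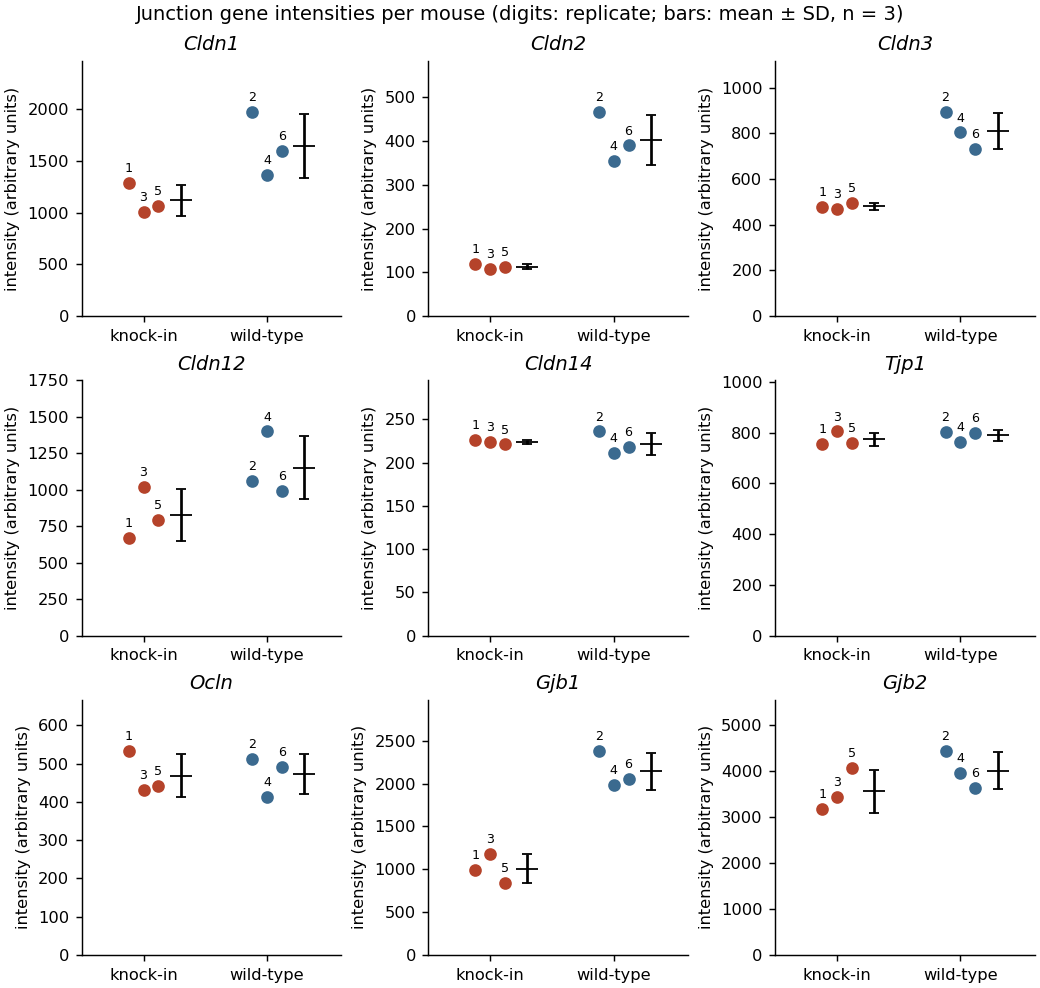
Intensity (linear axis from 0, arbitrary units) of each of the 9 genes in each mouse, knock-in left and wild-type right, with digits for the replicate and bars for the mean ± SD (n = 3). In Cldn1, Cldn2, Cldn3 and Gjb1 all knock-in points lie below all wild-type points, while in the other 5 genes the genotypes overlap.

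Cldn2 encodes a claudin that forms pores for sodium, other small cations and water, and in rat liver its protein increases towards the central vein. It read 120, 107 and 113 units in knock-in mice 1, 3 and 5, against 466, 354 and 390 units in wild-type mice 2, 4 and 6. The knock-in mice lay near each other and close to the median of their arrays, and the lowest wild-type mouse was far above them. The log2 change was -1.69 ± 0.12 with a 95% interval of -1.96 to -1.41 (SE, n = 3 each; limma adjusted p = 0.000289), and it was -1.78 to -1.58 with single mice left out.

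Cldn3 encodes a sealing claudin found along the whole liver plate in rat. Its probe set read 477, 468 and 497 units in the knock-in mice and 893, 804 and 733 units in the wild-type mice. The genotypes did not overlap, and the knock-in mice were again the tighter group (480.7 ± 14.8 against 810 ± 80.2 units, SD, n = 3 each). The log2 change was -0.73 ± 0.10 (SE; limma adjusted p = 0.00296).

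Cldn1 encodes a sealing claudin whose loss in people causes bile duct inflammation with skin disease. It read 1286, 1006 and 1068 units in knock-in mice, against 1973, 1364 and 1597 units in wild-type mice. The highest knock-in mouse lay a little under the lowest wild-type mouse, so the groups only just separated. The log2 change was -0.54 ± 0.16 (SE; limma adjusted p = 0.0412). This call was lost when any 1 mouse other than wild-type mouse 4 was left out (limma adjusted p = 0.0523 to 0.121), with no filter on low values (limma adjusted p = 0.0618) and with quantile normalization (limma adjusted p = 0.0508).

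The other 2 claudins were not called. Cldn12, a claudin linked to calcium passage in gut, read 667, 1022 and 794 units in knock-in and 1062, 1400 and 995 units in wild-type mice. Knock-in replicate 3 lay above wild-type replicate 6, and the log2 change of -0.48 ± 0.19 did not pass (SE; limma adjusted p = 0.105; 95% interval -0.91 to -0.04). With that mouse left out it did pass, at a log2 change of -0.64 (limma adjusted p = 0.0287). Cldn14, a cation-restricting claudin best known from the inner ear and kidney, read 226, 224 and 221 units in knock-in and 236, 211 and 218 units in wild-type mice. Its genotypes overlapped completely, with a log2 change of 0.01 (95% interval -0.19 to 0.21; limma adjusted p = 0.938).

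To set a pore-forming claudin against a sealing one within each mouse, the log2 ratio of Cldn2 to Cldn3 was taken per array. The ratio was -1.86, -1.98 and -1.99 in knock-in mice and -0.92, -1.15 and -0.88 in wild-type mice. All knock-in ratios were lower, by a mean of 0.96 on the log2 scale (log2 ratio change -0.96, 1.94-fold lower). The exact two-sided permutation test gave p = 0.10, which is the smallest that 3 mice against 3 allow, and the second ratio below has the same limit.

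Neither the strand protein nor the scaffold was called. Ocln, which encodes occludin, read 533, 431 and 442 units in knock-in and 513, 413 and 492 units in wild-type mice. The ranges overlapped almost fully, and the 95% interval of the log2 change ran from -0.31 to 0.29 (log2 change -0.01; limma adjusted p = 0.962). Tjp1, which encodes ZO-1, read 755, 804 and 760 units in knock-in and 803, 762 and 800 units in wild-type mice. Its log2 change was -0.03 with a 95% interval of -0.23 to 0.18 (limma adjusted p = 0.861), an interval that holds no change as large as those of Cldn2, Gjb1 or Cldn3.

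Gjb1 encodes Cx32, the most abundant connexin of hepatocytes, and Gjb2 encodes Cx26, which shares channels with it and is richest near the portal vein in rodents. Gjb1 read 995, 1178 and 842 units in knock-in mice, against 2382, 1983 and 2059 units in wild-type mice. No knock-in mouse came near the wild-type range. The log2 change was -1.09 ± 0.14 (SE; limma adjusted p = 0.00209; 95% interval -1.42 to -0.76). Gjb2 read 3164, 3429 and 4063 units in knock-in and 4428, 3949 and 3629 units in wild-type mice. These ranges overlapped, and the log2 change of -0.17 ± 0.12 was not called (SE; limma adjusted p = 0.341; 95% interval -0.45 to 0.10).

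The log2 ratio of Gjb2 to Gjb1 within each array was 1.65, 1.53 and 2.25 in knock-in mice and 0.89, 0.99 and 0.81 in wild-type mice. Every knock-in ratio was above every wild-type ratio, with a mean difference of 0.91 on the log2 scale (1.88-fold; exact two-sided permutation p = 0.10). Knock-in replicate 5 held the highest ratio, and without it the difference was 0.69.

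**Figure D2:**
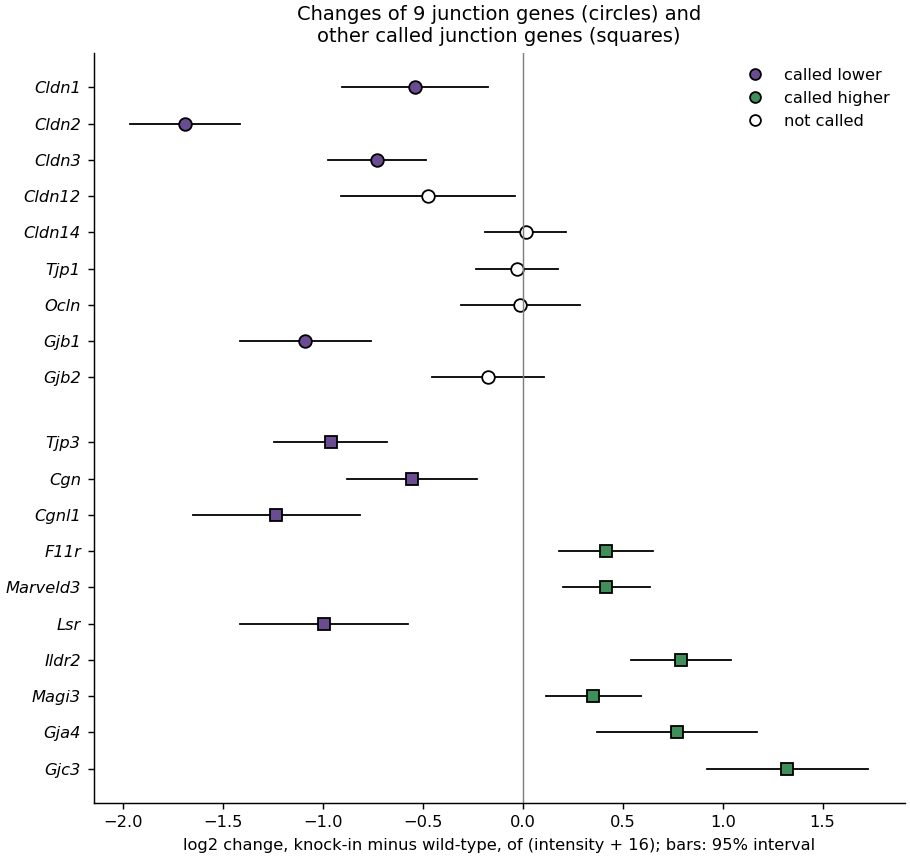
Log2 change (knock-in minus wild-type, of intensity + 16) with its 95% interval for the 9 genes (circles) and for the called genes among other tight and gap junction genes (squares), coloured by the limma call. Cldn2 lies farthest below 0 at -1.69, Tjp1, Ocln and Cldn14 sit at 0, and Gjc3 lies farthest above 0 at 1.32.

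Among other genes of the tight junction, 4 of 37 tested were lower and 4 were higher, with a median log2 change of -0.01. A further 6 were too dim to test, and these shares are close to or below those of all probe sets. The lower genes encode plaque proteins and a corner protein. Cgnl1 (paracingulin) read 225, 317 and 195 units in knock-in and 616, 514 and 642 units in wild-type mice. It fell by 1.23 on the log2 scale (SE 0.18; limma adjusted p = 0.00316). Tjp3, which encodes the scaffold ZO-3 and is a close relative of Tjp1, read 163, 178 and 181 units in knock-in and 316, 335 and 417 units in wild-type mice. Its log2 change was -0.96 ± 0.12 (limma adjusted p = 0.00193), outside the interval of Tjp1. Lsr, whose protein angulin-1 marks the corners where cells meet and also takes up lipoproteins, changed by -0.997 ± 0.18 (limma adjusted p = 0.00705). Cgn (cingulin), named here after its values were seen, changed by -0.56 ± 0.14, and its call was lost if knock-in mouse 1, wild-type mouse 2 or wild-type mouse 6 was left out (limma adjusted p = 0.0728 to 0.0866).

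The higher genes encode 3 membrane proteins and a scaffold. Ildr2, a relative of Lsr, read 1221, 1070 and 1255 units in knock-in and 622, 717 and 688 units in wild-type mice (log2 change 0.79 ± 0.11; limma adjusted p = 0.00242). Marveld3, a relative of occludin, changed by 0.42 ± 0.09 and F11r, which encodes the adhesion molecule JAM-A, by 0.42 ± 0.10. Magi3, a scaffold gene named after its values were seen, changed by 0.35 ± 0.10. The last 3 calls were lost with some single mice left out, though their log2 changes stayed positive. These ran from 0.36 to 0.51 for Marveld3, 0.38 to 0.49 for F11r and 0.31 to 0.42 for Magi3. Marveld3 was lost if knock-in mouse 1 or wild-type mouse 2 was left out (limma adjusted p = 0.0578 to 0.0592), F11r with knock-in mouse 1 or 5, or wild-type mouse 2 or 6, left out (limma adjusted p = 0.0620 to 0.0864), and Magi3 with any mouse but knock-in mouse 3 left out (limma adjusted p = 0.0506 to 0.138) and with arrays centred on their medians (limma adjusted p = 0.0926). The number of higher genes was 1 to 6 with single mice left out: it was 1 when knock-in mouse 1 or wild-type mouse 2 was dropped, and 2 when knock-in mouse 5 or wild-type mouse 6 was.

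Of 14 other gap junction genes tested, 2 were higher and 0 were lower by limma (0 also at an unadjusted p under 0.05), with a median log2 change of 0.00. The share called higher was close to that of all tested probe sets (14.9%, with 10.9% lower). Gjc3, a connexin gene known from myelinating glia in mouse, read 172, 248 and 194 units in knock-in and 54, 83 and 80 units in wild-type mice. It rose by 1.32 ± 0.17 on the log2 scale (SE; limma adjusted p = 0.00216). Gja4, a connexin gene of blood vessel endothelium, read 230, 372 and 288 units in knock-in and 151, 156 and 187 units in wild-type mice (log2 change 0.77 ± 0.17; limma adjusted p = 0.0156). The call of Gja4, and with it 1 of the 2 calls, was lost if wild-type mouse 2 or 4 was left out (limma adjusted p = 0.0539 to 0.0574). Of 12 endothelial markers, 3 were higher and 4 lower (1 higher if knock-in mouse 5 was dropped; 0 lower if knock-in mouse 1 or wild-type mouse 6 was, and 1 lower if wild-type mouse 2 was), and their summed level was 6245 to 8256 units in knock-in and 7006 to 7570 units in wild-type liver. Their part in the change of Gja4 was not tested.

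Adherens junctions and desmosomes are the mechanical contacts beneath the tight junction. Of 17 of their genes, 6 were lower and 0 higher (0 also at an unadjusted p under 0.05), with a median of -0.20. All tested probe sets had 10.9% lower and 14.9% higher. Dsp (desmoplakin) read 550, 645 and 578 units in knock-in and 1274, 1121 and 980 units in wild-type mice. It fell by 0.91 on the log2 scale (SE 0.12; limma adjusted p = 0.00257). Nectin3, an adhesion molecule, changed by -0.80 ± 0.14, and Dsg2, a desmosomal cadherin, by -0.60 ± 0.10. Ctnnb1 (beta-catenin, in junctions and in Wnt signalling) changed by -0.60 ± 0.14, Cdh2 (N-cadherin) by -0.49 ± 0.12 and Pkp4 (an armadillo-repeat junction protein) by -0.48 ± 0.14. The call of Ctnnb1 was lost if knock-in mouse 1, wild-type mouse 2 or wild-type mouse 6 was left out, and those of Cdh2 and Pkp4 with any mouse but knock-in mouse 3 left out (limma adjusted p = 0.0638 to 0.119). Pkp4 was also lost with no filter (limma adjusted p = 0.0631) and with quantile normalization (limma adjusted p = 0.0535). With knock-in mouse 1, wild-type mouse 2 or wild-type mouse 6 dropped, 3 of the 17 were lower, and 1 was higher with knock-in mouse 3 dropped. Cdh1 (E-cadherin), named after its values were seen, read 488, 388 and 391 units in knock-in and 592, 467 and 429 units in wild-type mice and was not called (limma adjusted p = 0.344).

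Among 18 genes that regulate such junctions, 3 were higher and 3 lower, which is not far from the shares of all tested probe sets (14.9% higher and 10.9% lower). Hnf4a, a hepatocyte transcription factor that promotes the epithelial state, read 8948, 8707 and 9461 units in knock-in and 4529, 5192 and 5479 units in wild-type mice. It rose by 0.84 ± 0.09 on the log2 scale (limma adjusted p = 0.00108). Cebpa, another hepatocyte transcription factor, read 983, 1110 and 1036 units in knock-in and 2418, 1797 and 2236 units in wild-type mice (log2 change -1.02 ± 0.13; limma adjusted p = 0.00185). Mylk, the kinase that contracts the actin ring at the junction, changed by -0.96 ± 0.10. Rock1 (a kinase of actin contraction), Tgfbr1 (a TGF-beta receptor) and Zeb2 (a repressor of epithelial genes) changed by 0.39 ± 0.10, 0.47 ± 0.10 and -0.66 ± 0.16. Each of these calls was lost with single mice left out: Rock1 with knock-in mouse 1 or any wild-type mouse dropped, Tgfbr1 with knock-in mouse 1 or wild-type mouse 2 dropped, and Zeb2 with knock-in mouse 1 or 5, or wild-type mouse 2, dropped (limma adjusted p = 0.0525 to 0.0877). The call of Rock1 was also lost with centred arrays (limma adjusted p = 0.0532), and 1 regulator was higher with knock-in mouse 1 or wild-type mouse 2 dropped.

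Because Cldn2 and Gjb2 have zoned expression, genes of the zone around the central vein and of the zone around the portal vein were measured beside them. Of 14 pericentral genes, 9 were lower and 1 higher, with a median log2 change of -0.72. All tested probe sets had 10.9% lower and 14.9% higher. With single mice left out, 6 to 8 pericentral genes were lower. Axin2, Lgr5 and Nkd1, lower and named after their values were seen, lost their calls with some single mice left out, and Nkd1 with any. Rnf43, Rhbg and Tbx3 changed by -1.49 ± 0.17, -1.68 ± 0.20 and -1.38 ± 0.19, and Cyp1a2, Lect2 and Glul by -2.36 ± 0.41, -1.72 ± 0.31 and -0.74 ± 0.13. Cyp2e1, named after its values were seen, read 13192 to 14540 units in knock-in and 14122 to 15246 units in wild-type liver and was not called. Of 9 periportal genes tested, 5 were higher and 2 lower, with a median of 0.29. Etnppl, Hsd17b13, Hal and Arg1 rose by 2.15 ± 0.11, 0.74 ± 0.09, 0.47 ± 0.09 and 0.42 ± 0.08 (limma adjusted p = 0.000109 to 0.00965), and these calls held with each single mouse left out. Pck1, named after its values were seen, was also higher (0.29 ± 0.08). Its call was lost if knock-in mouse 1 or 5, or wild-type mouse 2 or 4, was left out (limma adjusted p = 0.0724 to 0.123). It was also lost with centred arrays, no filter and quantile normalization. Cyp2f2 and Ctsc changed by -1.15 ± 0.19 and -1.53 ± 0.39, and Ctsc was lost if knock-in mouse 1 or any wild-type mouse was left out (limma adjusted p = 0.0565 to 0.0879). The single higher pericentral gene, Oat (named after its values were seen), was lost with any mouse but knock-in mouse 3 left out (limma adjusted p = 0.0610 to 0.146), with centred arrays (limma adjusted p = 0.108), with no filter (limma adjusted p = 0.0767) and under 5 other settings. Whole-liver arrays hold no position in the tissue, and the part of these listed genes' changes in those of Cldn2 and Gjb1 was not tested.

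**Figure D3:**
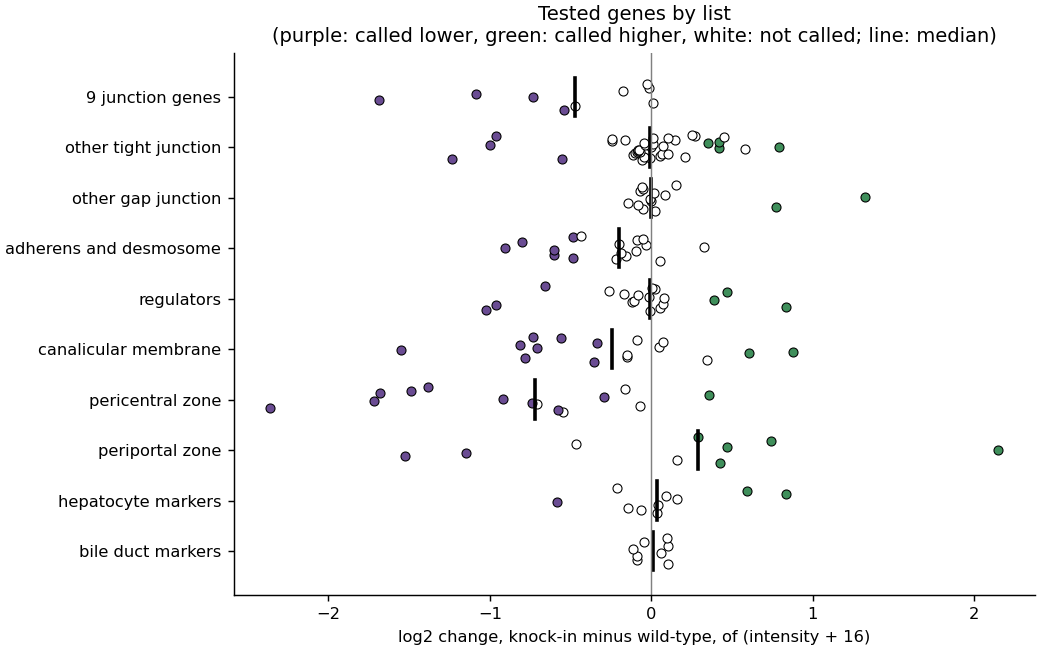
Log2 change (knock-in minus wild-type, of intensity + 16) of every tested gene by list, coloured by the limma call, with a black line at each list's median. The 9 junction genes have their median at -0.48 and the pericentral genes at -0.72, while other tight and gap junction genes and bile duct markers centre on 0. Many of the other claudins read below the array medians of 97 to 104 units. No value exceeded 372 units among other gap junction genes or 147 units among bile duct markers. Low signal limits how far a fall can show.

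All 9 genes had promoter windows in RefSeq. The windows shown above hold 5 CG dinucleotides in Cldn2, 9 in Cldn3 and 15 in Cldn1, against 27 in Gjb2 and 31 in Tjp1. The 4 windows of Gjb1 hold 2 to 15. Among genes that were not called, Ocln holds 17 to 24 over 2 windows, Cldn12 10 to 26 over 3 and Cldn14 7 to 9 over 3. The genes called lower therefore had 15 or fewer in every window, but so did Cldn14, and the median over 32851 RefSeq windows was 7 (quartiles 3 and 20). The letters TATAAA, the core of the TATA box, were searched on both strands and found in Cldn2, starting 35 bases before the start site, and in 1 window of Gjb1, starting 29 bases before it. No other window of the 9 genes held them, and 13.6% of all windows do. GGGCGG, the GC box, which contains a CG counted above, was found in 9 of the 17 windows of the 9 genes and in 7 of the 9 genes (not in Cldn2 or Cldn14), and 35.7% of all windows hold it. CTTTGAA, a site of the Wnt effectors TCF and LEF, was found in 1 window of Gjb1 and in no other, and 5.14% of all windows hold it. TTGCNNAA, a C/EBP site, was found in 1 window of Cldn14 only (10.8% of all windows), and GTTAAT, part of an HNF1 site, in 1 window each of Cldn1, Cldn14 and Gjb1 (7.10%). In all, 12 patterns were searched. Of the others, the full HNF1 site and both forms of the HNF4 site, CAAAGTNCA (1.41%) and CAAAGTCC (1.42%), were in none of the 17 windows. CTTTGNT was in 2 windows of 2 genes (18.6% of all windows) and CACCTG in 6 windows of 5 genes (20.2%). CCAAT was in 10 windows of 4 genes (37.4%) and CANNTG, which includes CACCTG, in 13 windows of 7 genes (72.3%). Windows of the same gene can overlap, as in Cldn12 and Ocln, so a single site can be counted in more than 1 window. Such matches describe the letters only.

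**Figure D4:**
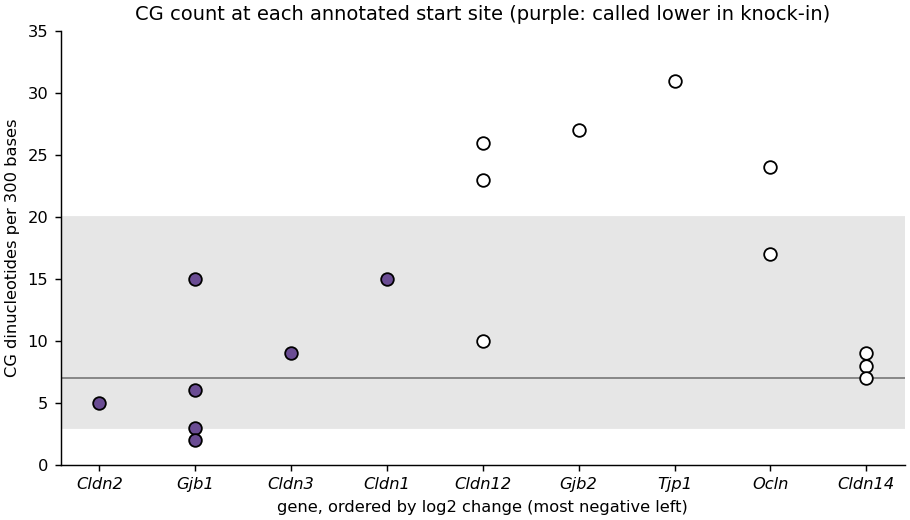
Number of CG dinucleotides in each 300-base promoter window (1 point per annotated start site) for the 9 genes, ordered from the most negative log2 change at the left; the grey line and band give the median of 7 and the quartiles of all RefSeq windows. The 4 genes called lower have 2 to 15 per window, as has Cldn14, while Gjb2 and Tjp1 reach 27 and 31.

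By Pearson's r over the 6 arrays, the genes most like Cldn2, the member with the largest change, were Fign (0.999), Shfl (0.998) and Ralgps2 (0.998). Fign, a microtubule-severing enzyme, read 58, 50 and 56 units in knock-in and 189, 147 and 155 units in wild-type mice. Shfl, an antiviral protein, read 327, 298 and 325 units in knock-in and 865, 745 and 813 units in wild-type mice. Of 17634 probe sets compared, 687 had r over 0.95, since any gene that is lower in knock-in liver with little spread within the genotypes scores high over 6 arrays.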

How the data were processed

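The authors deposited 1 table of intensities on a linear scale, in whole numbers, for 35512 probe sets on 6 arrays, 1 per mouse. Per the labels' protocols, liver RNA was column-purified, copied to cDNA and transcribed in vitro into a biotin-labelled target. How probes were summarised, corrected for background and normalized is stated in none of the sources used here. The array medians spanned 0.087 on the log2(value + 16) scale. Arrays carry no read depth, and 3 per genotype limit the precision. Gene symbols came from the platform annotation (21789 with 1 symbol, 1621 with several, 12102 not listed), which can be old. Coordinates are those of RefSeq promoter windows only.

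Values were transformed as log2(value + 16), and probe sets whose mean on that scale was under the 25th percentile were left out. The first fit took that percentile on the mean of untransformed intensities (26664 probe sets, 3991 higher, 2913 lower). The scale of the mean was settled after that fit had been seen, and the same number of members, 4, was lower in both. Genotypes were compared as knock-in minus wild-type with limma 3.58.1 in R 4.3.3 (lmFit, eBayes with trend), and p-values were adjusted by Benjamini-Hochberg over 26634 probe sets, with a threshold of 0.05. The procedure was tested on simulated data. Each mouse has its own label, so p-values measure the spread between mice. No batch is labelled. The named genes are the 9 members, up to 6 called genes of smallest p per junction, regulator or zone list with any called claudin, ZO or connexin gene, and the 3 genes most correlated with the most changed member. Marker lists are given by counts, sums and defining markers, and genes named outside this rule are marked as such. A listed gene was represented by its brightest probe set. The members and lists were chosen with earlier results of these data known. The alternatives changed the pseudocount (1 or 64), the scaling (quantile, or centring on array medians), the filter (none, the 50th percentile, or the untransformed mean, added after seeing the data), the prior (no trend, or robust), the array weights, the call (a 1.5-fold minimum) and the mice (each left out). The CG count was chosen for display after 12 promoter patterns had been searched. Figures were drawn with matplotlib 3.10.9.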

Additional observations from a re-analysis of the deposited data

How the results depend on the processing

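The calls of Cldn2, Cldn3 and Gjb1 held under all 17 alternatives (log2 changes -1.81 to -1.39, -0.80 to -0.66 and -1.21 to -0.97), and the number of lower members was 3 or 4. Cldn1 changed by -0.66 to -0.40 with single mice left out and by -0.50 with quantile normalization, and it was not called there (but for wild-type mouse 4 left out), with no filter or with a 1.5-fold minimum (-0.54 in both). Cldn12 ran from -0.64 to -0.33 with single mice left out. The sign of genes near 0 turned: Cldn14 was -0.0381 with centred arrays, -0.0273 with quantile normalization and -0.019 to 0.0564 with single mice left out, and Ocln was 0.00389 with array weights and -0.105 to 0.0479 with single mice left out. Over all probe sets, 2422 to 4271 were higher and 1814 to 3454 lower with single mice left out (lowest for knock-in mouse 1, wild-type mouse 2 and, for higher calls, wild-type mouse 6), and 2077 and 1774 with the 1.5-fold minimum. Of the calls, 57.7% were higher, and 47.7% (3119 higher, 3424 lower) with centred arrays. With single mice left out, higher calls numbered 1 to 6 among other tight junction genes, 1 to 2 among other gap junction genes, 0 to 1 among adherens and desmosome genes, 1 to 3 among regulators, 0 to 2 among canalicular genes, 0 to 1 among pericentral genes, 1 to 2 among hepatocyte markers, 1 to 3 among endothelial, 1 to 2 among stellate and 0 to 2 among Kupffer cell markers. Lower calls numbered 3 to 7 among adherens and desmosome genes, 3 to 8 among canalicular, 6 to 8 among pericentral, 1 to 2 among periportal genes, 0 to 2 among hepatocyte, 0 to 4 among endothelial, 2 to 5 among stellate, 0 to 3 among Kupffer cell, 1 to 3 among lymphocyte and 0 to 1 among erythroid markers. With centred arrays 0 canalicular and 0 pericentral genes were higher and 2 hepatocyte markers lower. With no filter 0 canalicular and 0 pericentral genes were higher, 1 Kupffer cell marker and 2 lymphocyte markers were lower, and with quantile normalization 0 pericentral genes were higher. The cause of these differences was not tested, and leaving a mouse out also leaves fewer arrays. Of the 66 called genes of the junction, regulator, canalicular, zone and marker lists, 0 changed sign under any alternative in which they were tested, and 182 of 1116 values missed the threshold. Both within-array ratios kept their direction (0.69 to 1.05 for Gjb2 over Gjb1 and -1.07 to -0.71 for Cldn2 over Cldn3). No paired analysis was possible because the genotypes share no replicate numbers. Taking the filter on untransformed means, an alternative added after seeing the data, changed no call of a member (limma adjusted p of Cldn1 0.0415).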

Other observations

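The canalicular membrane lies just inside the belt of tight junctions. Of 16 of its genes, 8 were lower and 2 higher in knock-in liver by limma, with a median log2 change of -0.24. All tested probe sets had 10.9% lower and 14.9% higher. Anpep, an aminopeptidase of the canaliculus, read 1085, 1948 and 916 units in knock-in and 3746, 3551 and 3774 units in wild-type mice. It fell by 1.55 on the log2 scale (SE 0.25, n = 3 each; limma adjusted p = 0.00460). Knock-in replicate 3 was the highest of its genotype and still below all wild-type mice. Rdx (radixin), which ties canalicular membrane proteins to actin, read 1296, 1480 and 1250 units in knock-in and 2141, 1839 and 1970 units in wild-type mice (log2 change -0.56 ± 0.11; limma adjusted p = 0.00823). Slc9a3r1, a scaffold that binds radixin and canalicular transporters, changed by -0.73 ± 0.14 (limma adjusted p = 0.00852). Abcb4 (phospholipid export) and Dpp4 changed by -0.78 ± 0.18 and -0.81 ± 0.20, and Abcb11, the bile salt export pump, by -0.36 ± 0.09. Each of these 3 calls was lost if knock-in mouse 1 or 5, or wild-type mouse 2 or 6, was left out, and those of Dpp4 and Abcb11 also with wild-type mouse 4 left out (limma adjusted p = 0.0501 to 0.0920). The 2 that were higher, the sterol exporter genes Abcg5 and Abcg8 (named after their values were seen), lost their calls with centred arrays (limma adjusted p = 0.0636 and 0.0561), with no filter and with any of 4 single mice left out, among them knock-in mouse 1 and wild-type mice 4 and 6 for both. With knock-in mouse 1 or 5, or wild-type mouse 2 or 6, dropped, 3 of the 16 were lower.

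Cells other than hepatocytes were measured in the same arrays. Of 12 stellate cell markers 2 were higher and 2 lower, of 12 Kupffer cell markers 0 were higher and 2 lower (1 and 5 at an unadjusted p under 0.05), of 7 lymphocyte markers 1 was lower and of 4 erythroid markers 1 was lower. Over all tested probe sets, 14.9% were called higher and 10.9% lower. Summed Kupffer cell markers read 3586 to 6334 units in knock-in and 5273 to 8895 units in wild-type liver, so the genotypes overlapped, as did summed stellate cell markers (8630 to 10248 units in knock-in and 7880 to 9066 units in wild-type liver). The sums did not overlap for lymphocyte markers, which read 659 to 760 units in knock-in and 773 to 883 units in wild-type liver, or for erythroid markers, which read 409 to 520 units in knock-in and 564 to 700 units in wild-type liver. Among single tested probe sets, all knock-in arrays lay below all wild-type arrays at 17.2%. The erythroid sum includes Alas2 (149 to 268 and 315 to 445 units), and the other 3 tested markers overlapped. The lymphocyte sum includes Ptprc (110 to 196 and 192 to 277 units, not called) and Cd79b (79 to 90 and 110 to 129 units, the only one called). These 3 genes are named after their values were seen. The Kupffer cell count was 0 lower with knock-in mouse 1 or 5, or wild-type mouse 2 or 4, dropped. The stellate count was 5 lower, and the lymphocyte count 3 lower, with knock-in mouse 3 dropped, and the erythroid count was 0 with wild-type mouse 2 or 6 dropped.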
